A study of Mus musculus with 15 samples.

Results

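Adult neurogenesis genes were followed through nuclei of the mouse dorsal hippocampal formation (dHF). The 9 genes were Dcx, Sox11, Igfbpl1, Draxin, Top2a, Mki67, Eomes, Neurod1 and Hopx, out of 32285 genes counted. They were listed by name for their known roles, with earlier results of these data known. Each was counted as UMIs (unique molecular identifiers, 1 per captured RNA molecule) and is given in CPM, its UMIs per 1000000 UMIs of the same nuclei. Single-nucleus RNA-seq had been run on brain punches of 15 female C57BL6/J mice, and 1 mouse gave 1 library. The NP group held 6 virgin mice, the ControlPP group 4 mice that had reared pups, and the StressPP group 5 mice whose rearing was disturbed by daily pup separation and limited nesting material until weaning. The NP and ControlPP mice had no such stress, and no group carried a transgene. The punches also took in some neighbouring tissue. The question was where these genes are read in the adult dHF, whether they separate nuclei of 2 lineages, and whether they differ with reproductive experience or with stress after birth.

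New neurons are made in the adult brain from slowly dividing stem cells with features of glia. Their dividing progeny become neuroblasts, which then mature. In the dentate gyrus the progeny become excitatory granule neurons, a lineage that is marked by the transcription factor Prox1. Along the lateral ventricles the progeny become GABAergic interneurons of the olfactory bulb, a lineage that is marked by the Dlx transcription factors. Hopx marks quiescent stem cells and many astrocytes, Top2a and Mki67 are read in dividing cells, Eomes marks intermediate progenitors of excitatory neurons, and Neurod1 drives their differentiation. Dcx binds microtubules in migrating neuroblasts, Sox11 is a transcription factor of immature neurons, Draxin is a secreted axon guidance protein, and Igfbpl1 is a member of the insulin-like growth factor binding protein family.

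Each mouse gave 5789 to 12738 barcodes, 40602582 to 96211264 UMIs in total and a median of 3993 to 8754 UMIs per barcode. After filtering and the removal of 9999 likely doublets, 123907 nuclei were kept, 5466 to 11438 per mouse. Pairs of libraries shared 6 to 47 barcodes. Batch 1 held 2 NP mice, 1 StressPP mouse and no ControlPP mouse. Leaving the 9 genes out of the clustering, 1406 nuclei (1.13%) fell into 3 clusters with markers of neuroblasts or of division, together called the immature clusters. The Prox1 neuroblast-like cluster held 507 nuclei and had 7 of 7 of its markers, a list for dentate neuroblasts and immature granule neurons. The Dlx neuroblast-like cluster held 402 nuclei and had 8 of 8 of its markers. A cluster of 497 nuclei had 14 of 14 proliferation markers, but the astrocyte list was higher in it, at a mean log2 fold of 5.50 against 4.29. Genes of this list went both ways. The glutamate transporter Slc1a3 was at 2584 CPM in the cluster and 1776 CPM in astrocytes, but Aqp4 was at 85.2 against 323 CPM. The cluster also had 9 radial glia markers, at a mean log2 fold of 3.91 over their list. It was therefore called the Egfr/Top2a cluster after 2 of its leading genes and was given no cell type. Sums over all immature nuclei include it.

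Top2a, a DNA topoisomerase that untangles chromosomes in division, lies on chr11:98992943-99024189 (GRCm38, minus strand). Mki67, which coats mitotic chromosomes, lies on chr7:135689784-135716361 (minus strand). Their RefSeq promoters are shown because, in the Egfr/Top2a cluster, 51 of the 73 nuclei with Top2a also had Mki67. Each sequence runs from 250 bases before to 50 bases after the start site, 5′ to 3′ on the gene's strand, in build GRCm38.p6, at chr11:99024140-99024439 for Top2a and chr7:135716330-135716629 for Mki67. Capitals mark the letters CCAAT and TTTGAA, on either strand.
Top2a: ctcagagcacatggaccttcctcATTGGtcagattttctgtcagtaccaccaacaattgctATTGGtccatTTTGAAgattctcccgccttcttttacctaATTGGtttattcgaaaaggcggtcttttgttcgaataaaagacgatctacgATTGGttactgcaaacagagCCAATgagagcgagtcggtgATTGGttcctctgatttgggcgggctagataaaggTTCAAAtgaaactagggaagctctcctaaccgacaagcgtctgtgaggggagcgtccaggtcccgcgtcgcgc
Mki67: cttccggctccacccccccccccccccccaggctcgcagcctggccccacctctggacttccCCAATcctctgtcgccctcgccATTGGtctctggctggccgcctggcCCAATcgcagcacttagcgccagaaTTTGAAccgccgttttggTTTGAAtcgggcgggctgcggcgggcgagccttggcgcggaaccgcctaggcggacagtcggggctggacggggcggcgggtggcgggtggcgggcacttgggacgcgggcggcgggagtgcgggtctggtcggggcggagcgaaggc
The letters CCAAT, a box bound by the factor NF-Y, occurred 6 times in the Top2a promoter and 3 times in that of Mki67. The letters TTTGAA, the core of an element found in many cell cycle promoters, occurred 2 times in each. CCAAT was also found in promoters of Eomes, Hopx, Sox11 and Dcx, and TTTGAA in that of Sox11. Those of Neurod1 and Draxin held neither. Of all 32851 promoters of this length, 37.4% held CCAAT and 17.9% held TTTGAA. RefSeq promoters were found for 8 of the 9 genes, and no one of the 8 held the letters GGCGGGAA, which 2.19% of all promoters held.

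Several of the 9 genes were at unequal levels in the 3 immature clusters. Dcx was highest in Dlx neuroblast-like nuclei, Neurod1 in Prox1 neuroblast-like nuclei and Hopx in the Egfr/Top2a cluster. Eomes was read in Prox1 neuroblast-like nuclei and the Egfr/Top2a cluster, and Top2a and Mki67 in the Egfr/Top2a cluster and Dlx neuroblast-like nuclei. Sox11 and Igfbpl1 overlapped between the neuroblast-like clusters, and Draxin was read in all 3. These levels are descriptions, as the clusters were drawn from the same nuclei, and nuclei of all mice were pooled.

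**Figure D1:**
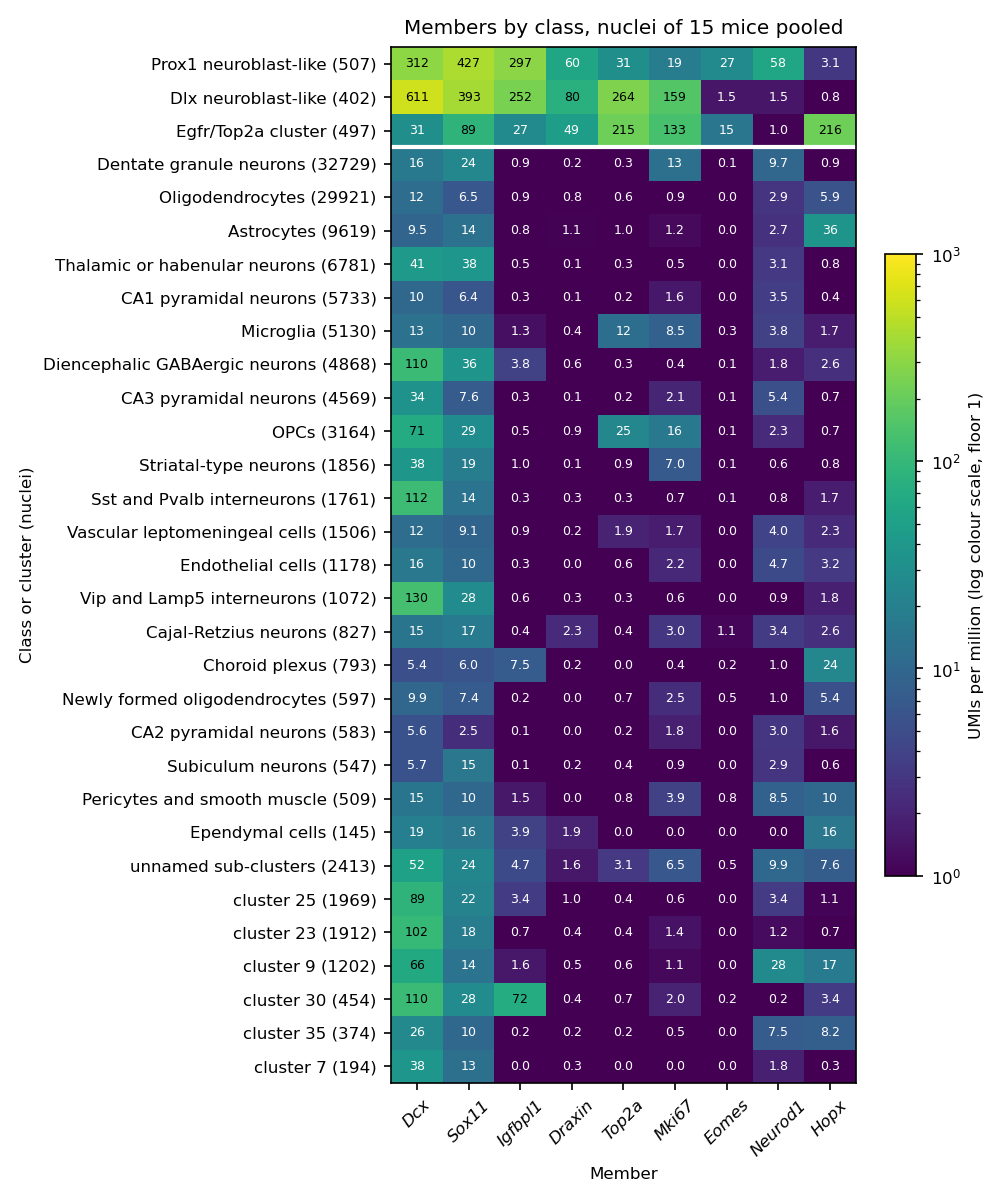
Level of each of the 9 genes (columns) in each class or cluster (rows, with the number of nuclei), in CPM with nuclei of 15 mice pooled and a log colour scale. The top 3 rows are the immature clusters, where Hopx stood at 3.1, 0.8 and 216 and Dcx at 312, 611 and 31.4 CPM.

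Hopx (chr5:77086988-77115121, minus strand) was at 216 CPM in the Egfr/Top2a cluster, against 3.1 CPM in Prox1 neuroblast-like and 0.8 CPM in Dlx neuroblast-like nuclei. Over the 15 mice its level in the Egfr/Top2a cluster was 216 ± 73 CPM (SD, n = 15), with a lowest mouse at 104, a median of 212 and a highest mouse at 330 CPM. Every mouse therefore lay above 100 CPM, with 13 to 52 nuclei of the cluster per mouse. Hopx was found in 45.1% of these nuclei, against 1.53% of oligodendrocytes and 0.370% of microglia, 2 glial classes used as a background for free RNA. The median nucleus had 3533, 2497 and 2062 UMIs in the 3 classes. Thinned to 1000 UMIs per nucleus, the shares were 17.4%, 0.550% and 0.160%. Most Hopx UMIs lay elsewhere, 55.7% of them in glia and vascular cells and 12.2% in the Egfr/Top2a cluster. Astrocytes read 35.6 CPM, but their clusters were unequal, with 39.7 to 72.7 CPM in 5 sub-clusters and 3.0 CPM in a cluster of 3700 nuclei. The choroid plexus read 24.2 CPM. An antisense gene, Hopxos, overlaps Hopx on the other strand.

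Within the Egfr/Top2a cluster, 89 of the 497 nuclei (17.9%) had a UMI of Top2a or Mki67, and 51 had both. Hopx was found in 12 of these 89 nuclei (13.5%), and in 52.0% of the other nuclei of the cluster. The median was 4263 UMIs in the 89 nuclei and 3455.5 UMIs in the rest, and the part of depth was not tested. As counted, nuclei with the division genes and nuclei with Hopx were mostly different nuclei of 1 cluster.

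Top2a stood at 264 CPM in Dlx neuroblast-like nuclei, 215 CPM in the Egfr/Top2a cluster and 31 CPM in Prox1 neuroblast-like nuclei. Mki67 followed it at 159, 133 and 18.6 CPM. The spread over mice was wide. In Dlx neuroblast-like nuclei Top2a was 264 ± 163 CPM (SD, n = 9 mice with at least 10 such nuclei), from 21.0 to 544 CPM. In the Egfr/Top2a cluster it was 203 ± 171 CPM (SD, n = 15), with 2 mice at 0 and the highest at 552 CPM. In Prox1 neuroblast-like nuclei it was 31.3 ± 33.3 CPM (SD, n = 15), from 0 to 107 CPM. A UMI of either gene was found in 72 of 402 Dlx neuroblast-like nuclei (17.9%) and in 25 of 507 Prox1 neuroblast-like nuclei (4.93%). The share was 0.324% in oligodendrocytes, 1.0% in microglia and 3.92% in oligodendrocyte precursor cells (OPCs), the dividing glia of the adult brain. OPCs read 24.7 CPM of Top2a and 16.2 CPM of Mki67, and microglia 12.0 and 8.5 CPM.

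Most Mki67 was counted outside the immature clusters. Dentate granule neurons, which do not divide, held 70.5% of all Mki67 UMIs at 12.8 CPM, while Top2a in the same nuclei was at 0.3 CPM, and oligodendrocytes read 0.9 CPM of Mki67. Of the 3530 granule nuclei with either gene, 20 had both. The level of Mki67 in granule neurons varied by mouse from 2.27 to 21.1 CPM. In batch 1 it was 2.27 to 9.05 CPM, in batch 2 it was 8.91 to 20.5 CPM, and in batch 3 it was 6.86 to 21.1 CPM, and the part of the batch in this level was not tested. The annotation places only Gm45240, on the opposite strand, within Mki67.

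Eomes (chr9:118478212-118486132, plus strand) was the rarest of the 9, with 155 UMIs in all, of which 59.4% lay in the immature clusters. It was found in 6.90% of Prox1 neuroblast-like nuclei, against 0.0134% of oligodendrocytes. It read 27 CPM in Prox1 neuroblast-like nuclei, 15.2 CPM in the Egfr/Top2a cluster and 1.5 CPM in Dlx neuroblast-like nuclei. All 15 mice had Eomes in Prox1 neuroblast-like nuclei, at 31.1 ± 30.4 CPM (SD), from 6.49 to 129.9 CPM. In the 9 mice with enough Dlx neuroblast-like nuclei it was 0 in every mouse. In the Egfr/Top2a cluster, 10 of the 17 nuclei with Eomes also had Mki67 and 12 had Sox11, while 2 had Hopx.

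Neurod1 (chr2:79452521-79456751, minus strand) read 57.9 CPM in Prox1 neuroblast-like nuclei, against 1.5 CPM in Dlx neuroblast-like nuclei and 1.0 CPM in the Egfr/Top2a cluster. By mouse it was 59.1 ± 23.1 CPM (SD, n = 15) in Prox1 neuroblast-like nuclei, from 26.0 to 110 CPM. It was found in 21.7% of these nuclei, against 0.769% of oligodendrocytes. In Dlx neuroblast-like nuclei 7 of 9 mice were at 0. Granule neurons kept Neurod1 at 9.7 CPM and, being many, held 55.5% of its UMIs. The unnamed cluster 9, led by D130079A08Rik, Ano1 and Pou4f1 among others, read 27.5 CPM. Neurod1 lies within Cerkl on the same strand, so reads of the 2 genes may not be fully separated.

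Dcx (chrX:143855842-143933311, minus strand) was at 611 CPM in Dlx neuroblast-like nuclei and 312 CPM in Prox1 neuroblast-like nuclei. By mouse the levels were 612 ± 58.7 CPM (SD, n = 9), from 520 to 694 CPM, and 297 ± 68.9 CPM (SD, n = 15), from 191 to 411 CPM. The 9 mice are among the 15. The values by mouse did not overlap between the 2 clusters, and the share of all genes for which this holds was not counted. Dcx was found in 78.9% of Dlx neuroblast-like nuclei and 65.7% of Prox1 neuroblast-like nuclei, against 3.05% of oligodendrocytes and 2.67% of microglia. The median nucleus had 2846, 3904, 2497 and 2062 UMIs in these classes, and thinned to 1000 UMIs the shares were 46.6%, 25.7%, 1.21% and 1.1%. Even so, 4.51% of all Dcx UMIs lay in the immature clusters. Other named neurons held 55.7%, with 130.4 CPM in Vip and Lamp5 interneurons, 112 CPM in Sst and Pvalb interneurons and 110 CPM in diencephalic GABAergic neurons, and OPCs read 71.0 CPM. Dentate granule neurons held 14.5% at 16.3 CPM.

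Sox11 (chr12:27334264-27342574, minus strand) was at 427 CPM in Prox1 neuroblast-like and 393 CPM in Dlx neuroblast-like nuclei, and at 88.9 CPM in the Egfr/Top2a cluster. By mouse it was 442 ± 91.6 CPM (SD, n = 15) in the first and 361 ± 101 CPM (SD, n = 9) in the second, and the ranges of 325 to 726 and 169 to 545 CPM overlapped. It was found in 76.3% and 60.4% of these nuclei, against 1.61% of oligodendrocytes, and after thinning in 35.6%, 30.9% and 0.604%. Only 7.99% of its UMIs came from the immature clusters, as granule neurons held 36.8% at 24.5 CPM.

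Igfbpl1 (chr4:45809468-45826923, minus strand) was more restricted, with 44.7% of its UMIs in the immature clusters. It read 297 CPM in Prox1 neuroblast-like, 252 CPM in Dlx neuroblast-like and 27.2 CPM in Egfr/Top2a nuclei. It was found in 64.5%, 51.5% and 5.03% of these nuclei, against 0.204% of oligodendrocytes. By mouse the neuroblast-like levels were 309 ± 94.0 CPM (SD, n = 15) and 251 ± 65.7 CPM (SD, n = 9), with ranges of 172 to 548 and 113 to 356 CPM that overlapped. Among the 28 other classes and clusters its median was 0.8 CPM, and 1 exceeded 20 CPM, the unnamed cluster 30 of 454 nuclei led by Cpa6, Ano2 and Ankfn1, at 72 CPM.

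Draxin (chr4:148098437-148130698, minus strand) was read about evenly in the 3 immature clusters, at 59.7 CPM in Prox1 neuroblast-like, 80.1 CPM in Dlx neuroblast-like and 48.6 CPM in Egfr/Top2a nuclei. These held 51.5% of its UMIs, and no other class exceeded 2.26 CPM. By mouse the levels were 61.7 ± 27.8 CPM (SD, n = 15), 71.3 ± 24.8 CPM (SD, n = 9) and 52.6 ± 44.6 CPM (SD, n = 15) in the 3 clusters, with overlapping ranges. In the Egfr/Top2a cluster 28 of the 54 nuclei with Draxin also had Top2a. Mad2l2, which lies on the opposite strand, overlaps it.

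**Figure D2:**
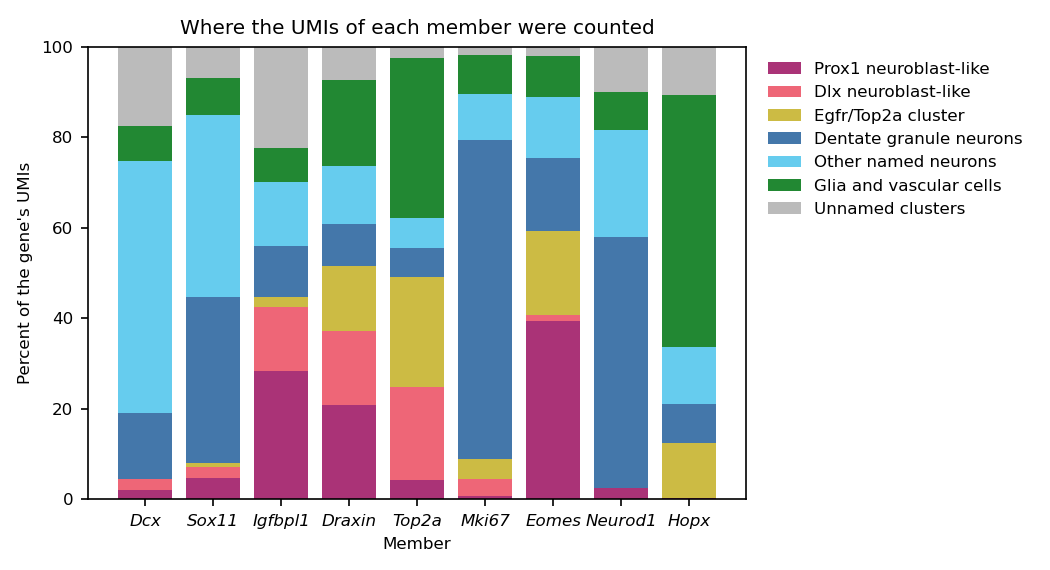
Percent of each gene's UMIs (vertical axis, stacked to 100) counted in each immature cluster, in dentate granule neurons, in other named neurons, in glia and vascular cells, and in unnamed clusters, over nuclei of 15 mice. Immature clusters held 59.4% of Eomes UMIs but 2.49% of Neurod1 and 4.51% of Dcx UMIs.

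Across 44 clusters and sub-clusters, the genes most like each of the 9 by Pearson's r of log2(CPM + 1) were as follows. This is a description over clusters that share libraries. Top2a was closest to Esco2, a cohesin acetyltransferase of S phase, at r = 0.98, and Mki67 was closest to Top2a at 0.86. Draxin was closest to Rrm2, a subunit of ribonucleotide reductase, at 0.91, and Eomes to Neurog2, a proneural transcription factor of excitatory neurons, at 0.87. Neurod1 was closest to Bhlhe22, a transcription factor of excitatory neurons, at 0.75. Hopx was closest to Gldc, a glycine cleavage enzyme of astrocytes, at 0.83. Dcx was closest to Frmd3 at 0.85, Igfbpl1 to Aldh1b1 at 0.80, and Sox11 to Lmnb1, a nuclear lamin, at 0.79.

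To separate the 2 lineages without the clusters' names, immature nuclei were split by their own lineage genes. Dlx-positive nuclei had at least 2 UMIs over Dlx1, Dlx2, Dlx5, Dlx6 and Dlx6os1 and no Prox1, and Prox1-positive nuclei had at least 2 UMIs of Prox1 and none of the Dlx genes. This gave 221 Dlx-positive and 425 Prox1-positive nuclei, while 191 had both, 337 had neither and 232 lay below the limit. Of the Dlx-positive nuclei 204 were Dlx neuroblast-like and 15 were in the Egfr/Top2a cluster. Of the Prox1-positive nuclei 359 were Prox1 neuroblast-like and 66 were in the Egfr/Top2a cluster. Prox1 RNA was also read outside its lineage. It was found in 89.4% of Prox1 neuroblast-like nuclei at 824 CPM, in 42.3% of Dlx neuroblast-like nuclei at 227 CPM and in 38.4% of the Egfr/Top2a cluster at 166 CPM. Glia differed among themselves, with 42.3% of oligodendrocytes at 241 CPM, 11.8% of astrocytes at 39.2 CPM and 10.8% of microglia at 56.2 CPM. A UMI of Prox1 in the Egfr/Top2a cluster was thus less frequent than in oligodendrocytes and more frequent than in astrocytes and microglia. Of the 191 nuclei with both, 169 were Dlx neuroblast-like, and their Dcx was at 535 CPM and their Neurod1 at 3.9 CPM.

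Both kinds of nuclei were compared within 7 mice that had at least 10 of each (2 NP, 2 ControlPP and 3 StressPP mice), with edgeR's quasi-likelihood test on summed UMIs and the mouse as a block. Of 1969 genes tested, 36.6% passed an adjusted p of 0.05 (Benjamini-Hochberg over all genes tested), with 15.8% higher in Dlx-positive and 20.8% higher in Prox1-positive nuclei. Of the 9 genes 4 were frequent enough to be tested. Dcx rose in Dlx-positive nuclei, and Sox11 and Igfbpl1 did not pass. A UMI of Top2a or Mki67 was in 17.9% of Dlx neuroblast-like and 4.93% of Prox1 neuroblast-like nuclei. The part of stage in the Dcx difference was not tested. Top2a passed as well, but it met the filter on low counts through the nuclei where it was high, so its values are given as a description.

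Dcx in Dlx-positive nuclei was 499 and 514 CPM in NP mice 35 and 73, 658.5 and 649 CPM in ControlPP mice 72 and 87, and 687, 546 and 565 CPM in StressPP mice 43, 75 and 77. In Prox1-positive nuclei of the same mice, in the same order, it was 191, 332, 187, 348, 179, 317 and 309 CPM. All 7 mice had more Dcx in Dlx-positive nuclei, and the 2 sets of values did not overlap. The share of all genes that separate in this way was not counted. The means were 588 ± 75.5 and 266 ± 76.3 CPM (SD, n = 7). The log2 difference was 1.12 (SE 0.20), with an edgeR adjusted p of 8.3e-05.

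Top2a in Dlx-positive nuclei was 196 and 399.8 CPM in NP mice 35 and 73, 38.7 and 269 CPM in ControlPP mice 72 and 87, and 107, 411 and 439 CPM in StressPP mice 43, 75 and 77. In Prox1-positive nuclei of these mice it was 0, 15.1, 0, 45.1, 124, 11.7 and 44.1 CPM. Top2a was higher in the Dlx-positive nuclei of 6 of 7 mice, and StressPP mouse 43 was the exception. The log2 difference was 2.81 (SE 0.44), 1.75 with a limit of 1 UMI and 3.38 with DESeq2. Of the 122 Top2a UMIs in Prox1-positive nuclei 94 lay in the Egfr/Top2a cluster, and Prox1 neuroblast-like nuclei read 15.9 CPM against 221 CPM in the Dlx neuroblast-like ones among Dlx-positive nuclei. Without mouse 43 it was no longer frequent enough, nor was it with a limit of 3 UMIs or without the nuclei of the Egfr/Top2a cluster, where Dcx still passed.

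For Sox11 and Igfbpl1 the 2 kinds of nuclei overlapped. Sox11 was 374 ± 73 CPM in Dlx-positive and 377 ± 103 CPM in Prox1-positive nuclei (SD, n = 7), higher in Dlx-positive nuclei in 4 of 7 mice (log2 difference -0.022, SE 0.18, edgeR adjusted p = 0.941). Igfbpl1 was 237 ± 60.8 and 218 ± 49.0 CPM, higher in Dlx-positive nuclei in 5 of 7 mice (log2 difference 0.10, SE 0.21, edgeR adjusted p = 0.745).

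The other 5 genes had too few UMIs for the test with a limit of 2 UMIs. Draxin was 53.1 ± 46.7 CPM in Dlx-positive and 61.4 ± 17.6 CPM in Prox1-positive nuclei, higher in Dlx-positive nuclei in 3 of 7 mice. Mki67 was 139.5 ± 87.9 and 38.1 ± 74.9 CPM, higher in 5 of 7, and with a limit of 1 UMI it met the filter, as Top2a did, through the nuclei where it was high, with a log2 difference of 1.68. Hopx was 0 in the Dlx-positive nuclei of all 7 mice and 20.1 to 85.0 CPM in their Prox1-positive nuclei. Over all mice, 86 of the 93 Hopx UMIs of Prox1-positive nuclei lay in the 66 nuclei of the Egfr/Top2a cluster, at 246 CPM. The 359 Prox1 neuroblast-like nuclei among them read 4.0 CPM from 7 UMIs, while 0 UMIs in Dlx-positive nuclei allow up to 4.45 CPM, so Hopx did not separate the neuroblast-like nuclei of the 2 lineages at this depth. All 94 Neurod1 UMIs of Prox1-positive nuclei lay in Prox1 neuroblast-like nuclei, at 53.4 CPM, against 1 UMI in Dlx-positive nuclei. Eomes had 43 UMIs against 2, with 18 of the 43 in the Egfr/Top2a cluster, a ratio of levels of 6.87 (95% exact interval 1.79 to 58.5, counting error only). With no filter on low counts, 6 of the 9 passed and 7.06% of all genes did, with Mki67 joining the higher and Hopx, Neurod1 and Eomes the lower in Dlx-positive nuclei. With DESeq2, 4 of the 9 passed (Dcx, Top2a, Hopx and Neurod1) and 10.6% of all genes. With a limit of 1 UMI, 3 passed against 34.4% of all genes tested. With a limit of 3 UMIs it was 1 against 41.3%, and without the Egfr/Top2a cluster 1 against 39.2%. At 1 UMI only Dcx, Sox11, Igfbpl1, Top2a and Mki67 were frequent enough to be tested. At 3 UMIs, and without the Egfr/Top2a cluster, only Dcx, Sox11 and Igfbpl1 were. DESeq2 tested all but Eomes.

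**Figure D3:**
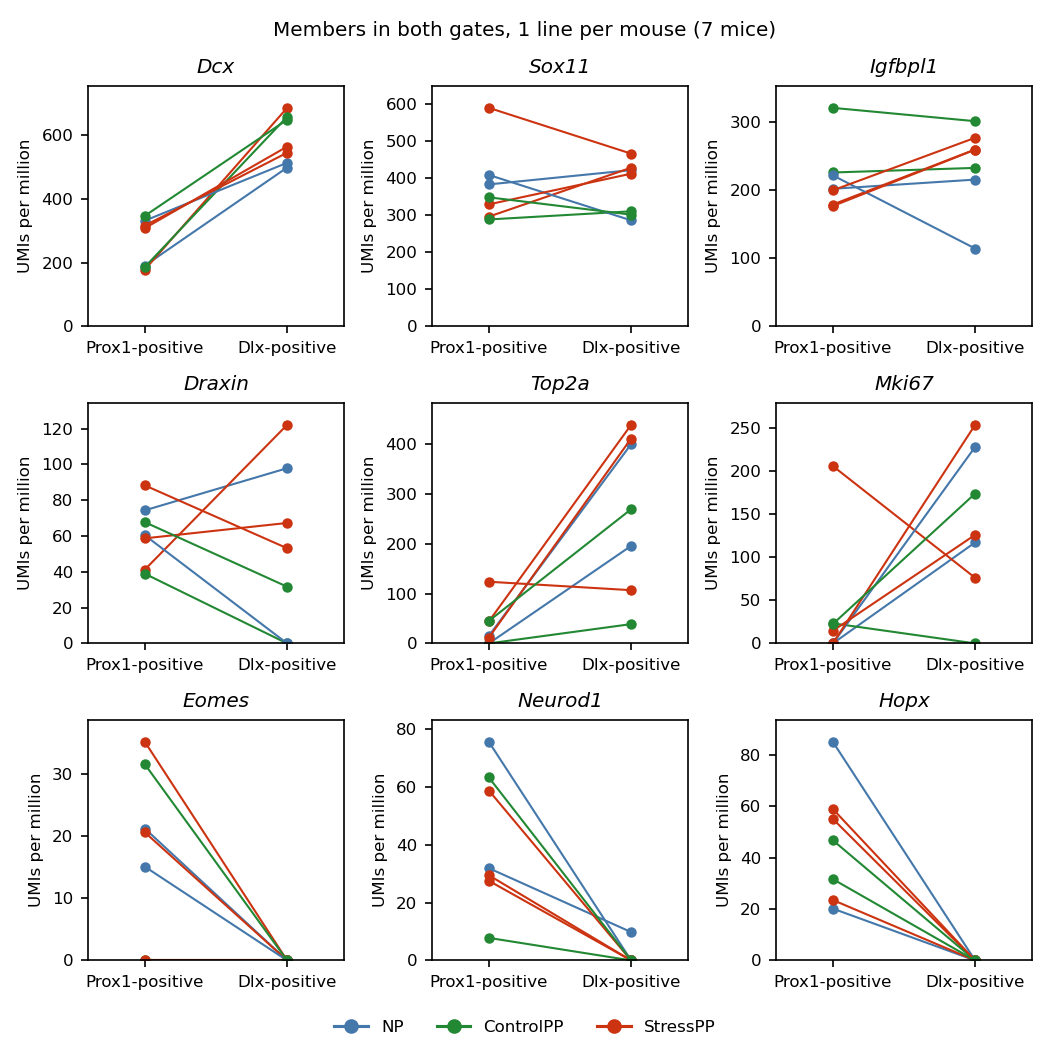
Level of each gene in CPM in Prox1-positive and Dlx-positive immature nuclei, with 1 line per mouse for 7 mice, coloured by group. Dcx rises to the right in all 7 mice and Top2a in 6 of 7, Hopx and Neurod1 fall in all 7, and the lines of Sox11 and Igfbpl1 cross.

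Other genes of these pathways were counted in the same test. Some of them also shaped the clusters or named them, so their counts describe the 2 kinds of nuclei. A gene with a large difference met the filter on low counts through the nuclei where it was high, so the counts over tested genes are no support for a direction. Over all genes tested, 15.8% were higher in Dlx-positive and 20.8% in Prox1-positive nuclei. Of 12 GABAergic neuroblast genes 7 were tested and all 7 were higher in Dlx-positive nuclei, led by Pbx3 and Meis2, homeodomain factors of the ventral forebrain, at log2 differences of 8.60 and 8.26. Of 12 genes of the dentate granule lineage 2 were tested. Sema3c, a secreted guidance cue, was lower at -5.50, and Nfix was at -0.44 with an edgeR adjusted p of 0.0538. Of 18 genes of immature neurons 10 were tested and 8 were higher in Dlx-positive nuclei, led by Dclk2, a relative of Dcx, at 1.77 and Sox4, a relative of Sox11, at 1.76. Of 20 cell cycle genes 1 was tested, the histone methyltransferase Ezh2, which was higher at 0.73 (edgeR adjusted p = 0.0484), and of 16 genes of stem cells and radial glia 1 was tested, the growth factor receptor Egfr, which was higher at 1.05 (edgeR adjusted p = 0.0284). The median log2 difference was 4.71 over the 7 GABAergic genes and 0.93 over the 10 immature neuron genes, against 0.00080 over all genes tested.

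Between the groups, none of the 9 genes passed in any class where it could be tested. All 9 were frequent enough in the whole punch and over all immature nuclei. In the single clusters, 6 could be tested in Dlx neuroblast-like nuclei, 4 in the Egfr/Top2a cluster and 3 in Prox1 neuroblast-like nuclei. In granule neurons it was 7 and in astrocytes 3, so the remaining genes have no result there. Tests were made with edgeR in the whole punch, in all immature nuclei, in each immature cluster, in dentate granule neurons and in astrocytes, for ControlPP against NP, StressPP against ControlPP and StressPP against NP. In the Dlx neuroblast-like cluster only StressPP against ControlPP could be tested, with 4 against 3 mice. Over 111 tests of the 9 genes the lowest edgeR adjusted p was 0.887, and 7 tests (6.31%) had an unadjusted p under 0.05. Of all genes tested, 0.855 to 5.48% had an unadjusted edgeR p under 0.05, depending on the comparison. Of all genes 0.00472% passed in the whole punch for ControlPP against NP (1 of 21165, with 842 at an unadjusted p under 0.05 and 29 by DESeq2). In every other comparison 0% of all genes passed in edgeR. DESeq2 called none of the 9 either. In the whole punch, fewer cells of a type and less RNA per cell cannot be told apart.

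Sox11 was the 1 gene of the 9 whose NP and ControlPP mice did not overlap in the whole punch. In NP mice 27, 31, 35, 37, 63 and 73 it ranged from 22.4 to 24.7 CPM with a median of 23.9, in ControlPP mice 66, 72, 87 and 88 it was 20.3, 21.1, 20.0 and 19.0 CPM, and in StressPP mice 43, 70, 75, 77 and 90 it was 20.7, 18.6, 22.5, 19.6 and 21.5 CPM. NP mice were all above ControlPP mice, a separation in either direction that 0.978% of all genes tested had, and StressPP mice overlapped both groups. Among the genes so separated, 175 were lower and 32 higher in ControlPP mice, in CPM without edgeR's size factors. The means were 23.6 ± 0.894 (SD, n = 6), 20.1 ± 0.862 (SD, n = 4) and 20.6 ± 1.52 CPM (SD, n = 5). The ControlPP minus NP difference was -0.16 on the log2 scale (SE 0.075), with an edgeR adjusted p of 0.928. The NP and ControlPP means were 23.5 and 20.0 CPM in batch 2 and 23.1 and 20.1 CPM in batch 3. With no overlap over all mice, NP had to be higher within each of these batches, so the means add no support.

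In dentate granule neurons, the single class with the most of its UMIs, Sox11 was 25.6 to 30.3 CPM with a median of 27.9 in the 6 NP mice. It was 25.0, 24.5, 18.8 and 21.5 CPM in ControlPP mice 66, 72, 87 and 88, and 24.1, 22.3, 22.0, 27 and 21.6 CPM in StressPP mice 43, 70, 75, 77 and 90. The NP and ControlPP mice again did not overlap, as held for 0.609% of all genes tested (74 lower and 28 higher in ControlPP mice). The StressPP mice overlapped both groups. The ControlPP minus NP difference was -0.28 on the log2 scale (SE 0.084, unadjusted p = 0.00500 and adjusted p = 0.968 in edgeR), and StressPP minus NP was -0.23 (SE 0.079, edgeR adjusted p = 1.00). Within batches the NP and ControlPP means were 27.6 and 23.0 CPM in batch 2 and 26.7 and 21.9 CPM in batch 3. The lack of overlap over all mice again fixed this order. In astrocytes, where the order was not fixed, the means were 17.8 and 15.9 CPM in batch 2 and 9.9 and 11.5 CPM in batch 3. The granule neurons and the whole punch share the same reads, so these are not 2 separate observations.

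In Prox1 neuroblast-like nuclei Sox11 had another order. It was 362, 325, 389 and 413 CPM in ControlPP mice 66, 72, 87 and 88 and 484.5, 505, 429, 726 and 418 CPM in StressPP mice 43, 70, 75, 77 and 90, and 375 to 472 CPM in NP mice. StressPP and ControlPP mice did not overlap, as held for 1.24% of all genes tested. The difference was 0.41 on the log2 scale (SE 0.16, unadjusted p = 0.0189, adjusted p = 0.999 in edgeR).

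Of the other genes, Mki67 in the Egfr/Top2a cluster had 2 of the 7 low unadjusted p-values. StressPP minus ControlPP was 1.46 on the log2 scale (SE 0.54) and ControlPP minus NP was -1.20 (SE 0.55), both with an edgeR adjusted p of 0.999. The ControlPP mice read 91.8, 17.4, 54.9 and 85.0 CPM and the StressPP mice 253, 23.4, 216, 259.7 and 58.5 CPM, so the groups overlapped. NP mouse 27 read 0 and the other 5 NP mice 147 to 179.7 CPM. Neurod1 over all immature nuclei was lower in StressPP than in NP mice by 0.91 on the log2 scale (SE 0.40, edgeR adjusted p = 1.00). Between these groups the mean share of Prox1 neuroblast-like nuclei went from 0.394 to 0.325% and that of Dlx neuroblast-like nuclei from 0.246 to 0.486%, with no difference in share passing its test. In the same sums the median log2 difference was 0.79 over the GABAergic list and -0.29 over the dentate list, and the part of this make-up in the Neurod1 value was not tested, as Neurod1 was too rare to test within Prox1 neuroblast-like nuclei. In Dlx neuroblast-like nuclei StressPP minus ControlPP was -0.36 for Igfbpl1 (SE 0.28) and -0.67 for Mki67 (SE 0.56), both with an edgeR adjusted p of 0.964 or more. Hopx in ControlPP minus NP mice was 0.47 in astrocytes (SE 0.26, 0.27 to 0.69 with 1 mouse left out) and -0.66 in granule neurons (SE 0.47), where it was 0.011 with a batch term and -0.89 to -0.32 with 1 mouse left out. Dcx in the whole punch was 35.8 ± 6.14 CPM in NP (SD, n = 6), 33.9 ± 7.09 CPM in ControlPP (SD, n = 4) and 38.6 ± 6.84 CPM in StressPP mice (SD, n = 5), and the groups overlapped. Top2a was 1.58 ± 0.95, 1.53 ± 0.294 and 2.11 ± 1.31 CPM in the same order, Draxin 0.738 ± 0.205, 0.62 ± 0.216 and 0.663 ± 0.220 CPM, and Eomes 0.170 ± 0.0669, 0.169 ± 0.0266 and 0.15 ± 0.0523 CPM. StressPP minus ControlPP on the log2 scale was 0.17 (SE 0.16) for Dcx, 0.42 (SE 0.45) for Top2a, 0.060 (SE 0.28) for Draxin and -0.15 (SE 0.34) for Eomes, each with an edgeR adjusted p of 1.00. Igfbpl1 in the whole punch was 0.55 (SE 0.39) for StressPP minus ControlPP, and StressPP mouse 75 alone stood at 5.92 CPM, with the next StressPP mouse at 3.73 CPM. Without mouse 75 the value was 0.17. No tested gene of the 5 pathway lists passed in any group comparison. Many were too rare to be tested in a single cluster. In Prox1 neuroblast-like nuclei 1 of 20 cell cycle genes and 0 of 16 genes of stem cells and radial glia were tested. Of the GABAergic neuroblast, dentate granule lineage and immature neuron lists, 2 of 12, 4 of 12 and 13 of 18 were tested there.

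**Figure D4:**
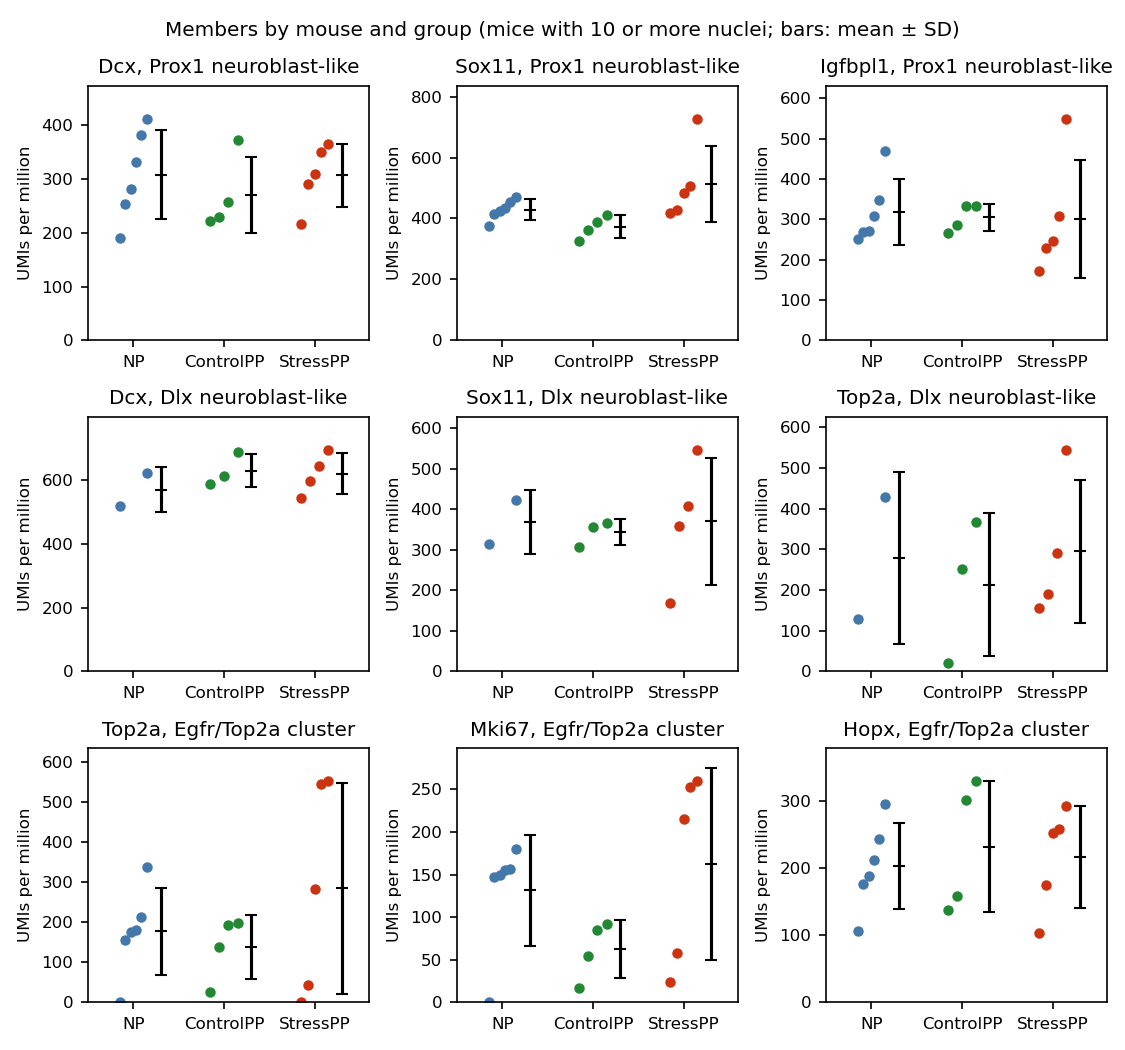
Levels in CPM by mouse and group for 9 pairs of a gene and an immature cluster, with 1 point per mouse that had at least 10 nuclei and bars for the mean and SD. In the comparisons tested, the groups overlap except that StressPP mice lie above ControlPP mice for Sox11 in the Prox1 neuroblast-like cluster. In the Dlx neuroblast-like cluster NP mice 35 and 73 alone had enough nuclei, and their overlap with other groups was not counted.

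The share of immature nuclei varied widely between mice, from 0.511 to 1.88% of nuclei, and no difference between groups passed. Prox1 neuroblast-like nuclei were 0.394 ± 0.234% of nuclei in NP mice (SD, n = 6), 0.501 ± 0.0668% in ControlPP mice (SD, n = 4) and 0.325 ± 0.132% in StressPP mice (SD, n = 5). StressPP minus ControlPP was -0.177 percentage points (2-sided exact permutation test p = 0.0635, adjusted p = 0.857 over 99 tests of 33 classes). It was -0.127 points within batch 2 and -0.183 points within batch 3. The Egfr/Top2a cluster was 0.367 ± 0.148%, 0.377 ± 0.109% and 0.436 ± 0.119% in the 3 groups. No class passed this test in any comparison (0% of 99).

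Dlx neuroblast-like nuclei were the most uneven. They ranged from 0 of 9631 nuclei in ControlPP mouse 88, which allows a share of up to 0.0311%, to 90 of 7878 (1.14%) in StressPP mouse 77. The share was 0.246 ± 0.290% in NP mice, 0.180 ± 0.148% in ControlPP mice and 0.486 ± 0.442% in StressPP mice (SD, n = 6, 4 and 5), and StressPP minus ControlPP was 0.307 percentage points with an exact permutation p of 0.206. Single mice moved this difference, which was 0.143 points without StressPP mouse 77 and at most 0.419 points with another mouse left out. All 3 mice of batch 1 held 2 to 4 such nuclei. Over the 15 mice the share rose with that of striatal-type neurons, a class named from markers such as Rgs9 and Ppp1r1b, at Pearson's r = 0.756 (permutation p = 0.00886, adjusted p = 0.0252 over 3 relations) and Spearman's rho = 0.885 (permutation p = 8.0e-05, adjusted p = 0.00024). Without the 2 mice farthest from the median share of striatal-type neurons r was 0.984, and within batches 2 and 3 it was 0.832 and 0.806 over 6 mice each. For the choroid plexus r was 0.651 and rho 0.707 (permutation adjusted p = 0.0252 and 0.00684), r without 2 mice was 0.560, and within batches 2 and 3 it was 0.752 and 0.397. For ependymal cells r was 0.506 and rho 0.507 (permutation adjusted p = 0.0781 and 0.0562). Only these 3 classes were related to the Dlx share, and all shares of a mouse have 1 denominator. Whether other classes show such a relation was not tested.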

How the data were processed

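Nuclei of 15 dHF punches were processed with the 10x 3′ v3.1 kit. Per mouse, the authors deposited whole UMI counts per gene and barcode, made with Cell Ranger (7.1.0 in the submitters' processing notes, 7.0.0 in the file header). The notes list both mm10 and GRCm39, and the deposited gene identifiers were matched to an annotation of GRCm38. Corrections for free RNA or doublets are not part of these counts. The 9 genes and the gene lists were chosen with earlier results of these data known.

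A barcode needed at least 200 genes and at most 5% of UMIs from mitochondria, which removed 113, and Scrublet (scanpy 1.11.5) removed the highest-scoring 0.8% of barcodes per 1000 barcodes as doublets. Clusters came from 2000 variable genes without the 9, 30 principal components, 15 neighbours and Leiden resolution 1. Clusters with immature markers were clustered again. Names rested on at least 3 markers at 5 CPM or more and 2-fold the median cluster, and the thresholds were set after the clusters were seen. Levels are UMIs of a gene over all UMIs of the same nuclei, and the upper limit of a zero count was set at 3 counts.

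Summed counts per mouse (at least 10 nuclei, and 3 mice per group) were tested with edgeR 4.0.16 (filterByExpr, TMM, quasi-likelihood, Benjamini-Hochberg), tested on simulated data. All 9 genes were to be named in every comparison. Between groups each has values in the whole punch or in a class, and the others are given by counts. From each list the 2 genes that changed most each way between Dlx-positive and Prox1-positive nuclei are named. Shares were tested by exact permutation over mice. Alternatives were DESeq2 1.42.0, other size factors, no filter, a batch term, other gates, other clusterings, doublets kept and each mouse left out. Overlap of groups was counted after values were seen.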

Additional observations from a re-analysis of the deposited data

Results flagged for a closer look

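Among 100 sets of values over groups of 4 to 6 mice, 14 had 1 mouse far from the others, where chance gives about 1 in 20, and 7 of the 14 were groups in which a rare gene was 0 or near 0 in all other mice. Hopx stood at 18.8 CPM in Dlx neuroblast-like nuclei of StressPP mouse 90, and at 5.85, 30.1 and 8.19 CPM in Prox1 neuroblast-like nuclei of ControlPP mouse 66, NP mouse 27 and StressPP mouse 90. Neurod1 stood at 3.54 CPM in Dlx neuroblast-like nuclei of StressPP mouse 77, and at 9.38 and 11.7 CPM in the Egfr/Top2a cluster of NP mouse 63 and StressPP mouse 70.

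Sox11 was apart in 2 groups. It was 214 CPM in the Egfr/Top2a cluster of ControlPP mouse 66, where the other ControlPP mice had 38.6 to 60.8 CPM, and 726 CPM in Prox1 neuroblast-like nuclei of StressPP mouse 77, where the others had 418 to 505 CPM. Mouse 66 also had the lowest share of the Egfr/Top2a cluster in its group, 0.214% against 0.426 to 0.438%.

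Mki67 was 300.1 CPM in Dlx neuroblast-like nuclei of StressPP mouse 90, against 101 to 117 CPM, and 0 in the Egfr/Top2a cluster of NP mouse 27, against 147 to 180 CPM. Draxin was 0 in Prox1 neuroblast-like nuclei of NP mouse 31, against 53.5 to 76.0 CPM. Prox1 neuroblast-like nuclei made up 0.551% in StressPP mouse 90, against 0.228 to 0.306% in the other StressPP mice.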

How the results depend on the processing

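No paired analysis was possible because the mouse numbers in the labels pair no mice across groups, which concerns the group comparisons, while Dlx-positive and Prox1-positive nuclei were compared within mice. In every group comparison none of the 9 genes passed under any alternative run, and no test of the share of an immature cluster did. Of the 9 genes in Dlx-positive against Prox1-positive nuclei, 2 passed. It was 4 with DESeq2, 6 with no filter and 3 with at least 1 UMI (Mki67 joining). It was 1 with at least 3 UMIs and 1 without the Egfr/Top2a cluster. In these counts, genes too rare to be tested are among those that did not pass. Leaving out 1 mouse gave 1 to 3, with 1 without StressPP mouse 43, against 32.5 to 35.9% of all genes tested. Top2a and Mki67 met the filter through the nuclei where they were high, so these counts are descriptions. Dcx passed under all 14 alternatives, with edgeR or DESeq2 adjusted p from 2.95e-06 to 0.0477. It kept a log2 difference of 0.97 to 1.24 with each mouse left out. Without Dlx6os1 in the definition the difference was lowest, at 0.84 (SE 0.28, edgeR adjusted p = 0.0477). Sox11 was -0.022 and turned to 0.14 with at least 1 UMI and 0.028 without Dlx6os1 in the definition, and ran from -0.12 to 0.086 with 1 mouse left out. Igfbpl1 turned to -0.061 without the Egfr/Top2a cluster. Hopx in granule neurons, ControlPP minus NP, turned from -0.66 to 0.011 with a batch term. The cause was not tested. Sox11, ControlPP minus NP, had adjusted p of 0.733 to 1.00 in the whole punch and 0.847 to 1.00 in granule neurons over its alternatives. Each mouse had 30 to 153 immature nuclei.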
